A study of Mus musculus with 32 samples.

Results

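The response to a high-fat diet (HFD) was examined in macrophages of A20 knockout mice, with both sorted populations in one model. The members are 16 of the 32 bulk RNA-seq libraries of the study, chosen by genotype alone. They are all libraries from mice with a myeloid-specific knockout of A20 (KO), and they comprise 4 libraries each of CD11c+ cells on HFD, CD11c+ cells on standard diet (SD), CD206+ cells on HFD and CD206+ cells on SD. The same 4 groups of wild-type mice (WT) make up the remaining 16 libraries and serve as the reference. All mice were C57BL/6J, and the diets were given for 12 weeks. Cells were sorted by flow cytometry from epididymal fat, CD11c+ cells as CD206-low and CD11c-high macrophages and CD206+ cells as the other adipose tissue macrophage subclass. The labels leave out the promoter that drives the deletion, the age of the mice and the number of mice behind a library. Nor do they state whether the 4 libraries within a group, or same-numbered CD11c+ and CD206+ libraries, stem from separate mice, so the p-values measure the spread between these libraries.

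Tnfaip3 encodes A20, which edits ubiquitin chains on signalling proteins, is induced by NF-kB and restrains NF-kB signalling downstream of TNF and Toll-like receptors. In fat tissue, obesity adds macrophages that take up lipid and carry CD11c, while CD206, the mannose receptor encoded by Mrc1, marks macrophages that are also found in lean tissue. Macrophages store excess fatty acids in lipid droplets, switch on targets of the lipid-sensing PPAR receptors, and repress sterol synthesis through the SREBP pathway when cell membranes are rich in cholesterol. The interferon response, a set of antiviral genes, is under separate control through STAT and IRF factors.

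Gene counts per KO library ranged from 18613018 to 21949196, and 14314 to 15689 genes had at least 1 read. Levels are given as CPM, reads per 1000000 gene reads after TMM scaling, which are not corrected for gene length. Tnfaip3 was lower in the KO than in the WT libraries but not absent, and the source of the remaining reads was not tested. In CD11c+ KO cells it averaged 253.9 ± 79.2 CPM on HFD and 371.5 ± 106 CPM on SD, against 693 ± 83.9 and 1462 ± 128 CPM in WT cells of the same population and diets (SD, n = 4 each). In CD206+ cells it averaged 213 ± 52.5 CPM on HFD and 262 ± 42.8 CPM on SD in KO, against 776 ± 92.5 and 638 ± 107 CPM in WT. No KO library was as high as any WT library of its population and diet. Within KO cells Tnfaip3 did not pass the test between the diets (log2 fold change -0.42 ± 0.16 SE, adjusted p = 0.309, edgeR). The sort gene Itgax, which encodes CD11c, was higher in CD11c+ than in CD206+ KO cells. It averaged 196 and 235 CPM on HFD and SD in CD11c+ KO cells and 3.41 and 4.54 CPM in CD206+ KO cells. The 10 macrophage markers summed to 19500 to 25900 CPM in KO libraries on HFD and to 20500 to 25000 CPM in those on SD, and Adgre1, Csf1r, Cd68, Ptprc, Lyz2, Mrc1 and Itgax did not pass the test between the diets in KO.

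Very little of the transcriptome passed the test between diets in KO cells. With population as a covariate, 27 genes were higher and 22 were lower on HFD, 49 of the 13453 genes tested or 0.364% (0.201% higher and 0.164% lower; edgeR quasi-likelihood test, Benjamini-Hochberg adjusted p under 0.05 over all genes tested, here called). The same test in WT cells called 2463 genes higher and 2464 lower (18.3% each), or 36.6%. At an unadjusted p under 0.05, 6.19% of all genes tested were higher and 5.77% lower in KO by edgeR. A negative sign was found for 6664 of the 13453 genes in KO. Counts of list members stand against these shares. The median absolute log2 fold change over all genes was 0.10 in KO and 0.28 in WT, and 219 genes (1.63%) in KO and 1790 genes (13.3%) in WT differed by more than 1 on the log2 scale. In the fit over all 32 libraries, 3994 genes (29.7%) had a diet effect that differed between the genotypes, 1950 of them more positive and 2044 more negative in KO. Between CD11c+ and CD206+ KO cells, 0 genes differed in their diet effect by edgeR (375 at an unadjusted p under 0.05) and 0 by DESeq2 (412 at an unadjusted p under 0.05).

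The number of called genes in KO was sensitive to single libraries and to how same-numbered libraries were treated. DESeq2 called 200 genes. By edgeR the count was 1, Rbp7, without CD11c+ SD replicate 2, CD11c+ SD replicate 4 or CD206+ SD replicate 2. It was 3 without CD206+ HFD replicate 2, 11 without CD11c+ HFD replicate 3, 17 without CD206+ HFD replicate 3 or CD11c+ SD replicate 3, 18 without CD206+ SD replicate 4 and 22 without CD206+ SD replicate 3. It was 30 without CD11c+ HFD replicate 4, 31 without CD206+ HFD replicate 1 and, at the other end, 66 without CD11c+ HFD replicate 1. When same-numbered CD11c+ and CD206+ libraries of a diet were taken as correlated, 0 genes were called (limma-voom, 1359 at an unadjusted p under 0.05), and 44 of the 49 genes had an adjusted p under 0.1 there, the lowest 0.0544 for Rbp7. With same-numbered libraries of a diet summed, 1 gene was called by edgeR. All 49 genes kept their sign under each of these settings. They were chosen for their change in these same libraries, so the kept signs are no separate result. The edgeR p-values printed for single genes come from fits that treat all libraries as independent. They would be too small if same-numbered libraries share a source.

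**Figure D1:**
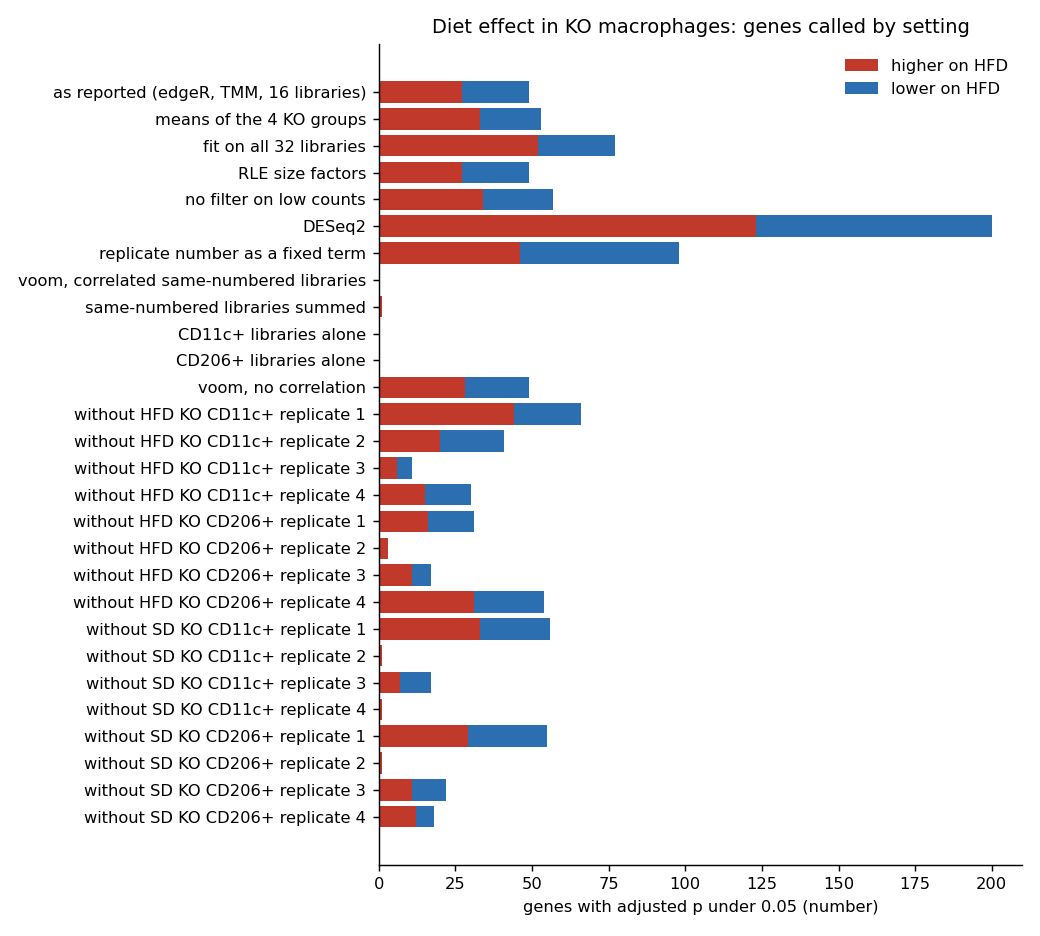
Genes called in the diet effect of KO cells (x axis, number of genes, higher on HFD in red and lower on HFD in blue) under each setting and with each library left out (rows). The fit as reported has 27 higher and 22 lower genes; DESeq2 has 123 and 77, and leaving out single libraries gives between 1 and 66 genes in all.

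Of the 27 genes that rose on HFD in KO cells, 4 belong to the lists of lipid droplet storage and of the PPAR axis, namely Plin2, Hilpda, Angptl4 and Fabp4. Plin2 encodes perilipin 2, the coat protein of macrophage lipid droplets. Its level in CD11c+ cells was 1903, 1381, 1702 and 1550 CPM on HFD (replicates 1 to 4), against 1113, 655, 1005 and 812.5 CPM on SD. In CD206+ cells it was 834, 1526, 1316 and 1066 CPM on HFD and 849, 413.5, 701 and 476 CPM on SD. The diets did not overlap in CD11c+ cells, and in CD206+ cells HFD replicate 1 lay just below SD replicate 1. Plin2 rose by 0.91 ± 0.15 (log2 fold change ± SE, 1.88-fold, adjusted p = 0.026, edgeR), and in WT cells by 1.29 ± 0.13 (adjusted p = 7.26e-07).

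Hilpda encodes an inhibitor of the triglyceride lipase ATGL that resides on lipid droplets. In CD11c+ cells it had 36.3, 49.1, 36.4 and 35.03 CPM on HFD against 21.7, 32.6, 23.98 and 17.4 CPM on SD, and in CD206+ cells 14.55, 25.65, 12.4 and 16.5 CPM on HFD against 11.5, 10.2, 9.79 and 8.24 CPM on SD. No HFD library overlapped an SD library of its population, and the gene rose by 0.75 ± 0.15 (adjusted p = 0.0347, edgeR). Of the 21 tested genes of the lipid droplet storage and lipolysis list, these 2 were called higher and 0 lower, 6 were higher and 0 lower at an unadjusted p under 0.05 (against 6.19% higher and 5.77% lower over all genes tested), and the median log2 fold change was 0.11, against 0.0014 over all genes tested. G0s2, another ATGL inhibitor, lay just outside the threshold at 1.17 (adjusted p = 0.0503).

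Angptl4 encodes a secreted inhibitor of lipoprotein lipase and is a target of PPAR receptors. It was at 33.5, 88.3, 112 and 87.6 CPM on HFD against 33.0, 14.8, 23.4 and 21.5 CPM on SD in CD11c+ cells, and at 103, 132, 220 and 135.5 CPM on HFD against 93.0, 24.5, 108 and 23.2 CPM on SD in CD206+ cells. HFD replicate 1 was the lowest HFD library in both populations, and in CD206+ cells it fell within the SD range. The change of 1.51 ± 0.32 (adjusted p = 0.0466) was the last inside the threshold. Fabp4, a fatty acid carrier of adipocytes, endothelium and macrophages, had 48.3, 77.3, 124 and 95.8 CPM on HFD against 35.3, 43.2, 43.0 and 51.1 CPM on SD in CD11c+ cells. In CD206+ cells it had 146, 193, 162 and 193 CPM on HFD against 99.4, 126, 110 and 134.5 CPM on SD, without overlap, and it rose by 0.78 ± 0.15 (adjusted p = 0.0347, edgeR).

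Of the 13 tested genes of the PPAR axis list 3 were called higher (Angptl4, Fabp4 and Plin2) and 0 lower, with a median log2 fold change of 0.29 in KO and 0.093 in WT. By population the WT median was 0.49 in CD11c+ and -0.185 in CD206+ cells, and the KO median 0.24 and 0.33. Replicate 1 did not follow the others: the list's mean deviation on the log2(CPM + 1) scale was -0.107 in HFD replicate 1 and 0.107 in SD replicate 1 of CD11c+ cells, against 0.288 to 0.37 in the other HFD and -0.361 to -0.249 in the other SD libraries. In CD206+ cells it was 0.133 in HFD replicate 1 and 0.113 in SD replicate 1. The PPAR receptor gene Pparg itself had a log2 fold change of -0.21 (adjusted p = 0.597) and Pdk4, a brake on pyruvate oxidation, one of 1.85 (adjusted p = 0.0824). Acot1, a cytosolic thioesterase that releases free fatty acids from their CoA esters, was below 3 CPM throughout, at 0.890, 1.65, 2.29 and 1.81 CPM on HFD against 0.623, 0.464, 0.332 and 1.15 CPM on SD in CD11c+ cells, and rose by 1.41 ± 0.29 (adjusted p = 0.0401, edgeR). It belongs to a family of similar genes, and how reads that fit several of them were counted is not given. Genes of fatty acid oxidation showed 0 calls among 29 tested, with 8 higher and 0 lower at an unadjusted p under 0.05, 23 of 29 positive and a median of 0.083. Etfb, which passes electrons from that pathway to the respiratory chain, was the nearest to the threshold (0.34 ± 0.075, adjusted p = 0.057, edgeR), followed by the carnitine carrier Slc25a20 (0.43 ± 0.11, adjusted p = 0.122, edgeR). In WT cells these genes had log2 fold changes of -0.24 and -0.21, and the genotypes differed for both (differences of 0.58 and 0.64, adjusted p = 2.11e-05 and 0.000498, edgeR).

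**Figure D2:**
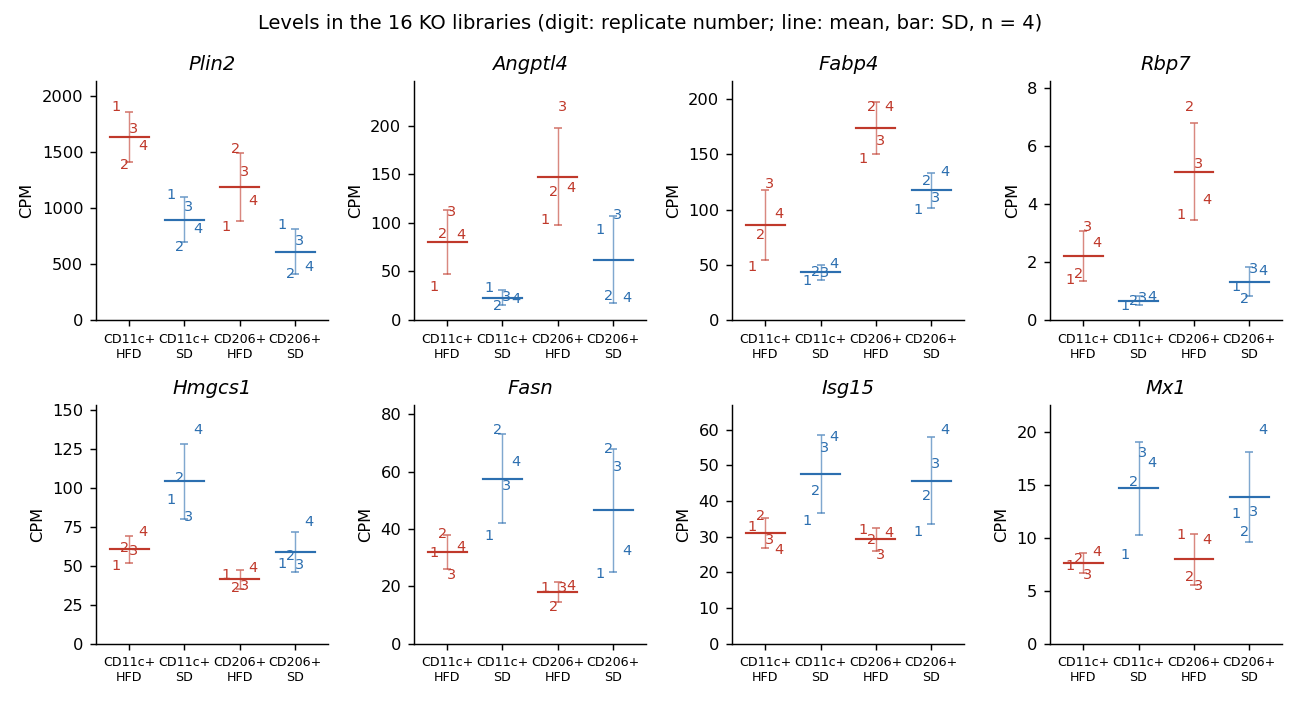
Levels of 8 genes called in KO cells (y axis, CPM) in each of the 16 KO libraries, with CD11c+ and CD206+ cells on HFD (red) and on SD (blue); each digit is a library at its replicate number, lines are means and bars the SD (n = 4). Rbp7 and Hmgcs1 show no overlap between the diets within a population, while Isg15 has SD replicate 1 inside the HFD range in both populations.

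Rbp7, which encodes a cellular retinol-binding protein, had the smallest adjusted p of all genes. Its levels were 1.39, 1.60, 3.21 and 2.65 CPM on HFD against 0.467, 0.650, 0.758 and 0.798 CPM on SD in CD11c+ cells, and 3.64, 7.37, 5.37 and 4.13 CPM on HFD against 1.14, 0.729, 1.76 and 1.69 CPM on SD in CD206+ cells. The diets did not overlap in either population, and Rbp7 rose by 1.84 ± 0.24 (3.58-fold, adjusted p = 0.00562, edgeR). It was called with each of the 16 libraries left out in turn. In WT its log2 fold change was -0.61 ± 0.46 (adjusted p = 0.313), and the difference between the genotypes was 2.44 ± 0.57 (adjusted p = 0.00138, edgeR).

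Rbp7 stood beside other genes known from capillary endothelium of fat. Pecam1, the adhesion molecule CD31, had 16.5, 11.2, 17.9 and 19.55 CPM on HFD against 7.89, 7.245, 7.96 and 9.87 CPM on SD in CD11c+ cells, and 27.4, 21.996, 21.45 and 29.25 CPM on HFD against 18.9, 16.8, 17.1 and 19.2 CPM on SD in CD206+ cells. Gpihbp1, which carries lipoprotein lipase across capillary endothelium, had 4.73, 5.33, 8.31 and 9.80 CPM on HFD against 2.54, 3.16, 3.74 and 4.59 CPM on SD in CD11c+ cells, and 11.35, 15.25, 13.9 and 15.85 CPM on HFD against 8.48, 9.53, 9.79 and 10.4 CPM on SD in CD206+ cells. Neither gene overlapped between the diets. Pecam1 rose by 0.72 ± 0.12 and Gpihbp1 by 0.77 ± 0.16 (adjusted p = 0.026 and 0.0391, edgeR), whereas the WT values were -0.31 and -0.44 and the genotypes differed by 1.04 and 1.22 (adjusted p = 0.013 and 0.018). Cyp4b1, a fatty acid hydroxylase, rose by 0.98 ± 0.19 (adjusted p = 0.0355, edgeR).

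All 14 endothelial markers were tested: Pecam1 was called, 4 were higher at an unadjusted p under 0.05 and 13 had a positive sign, with a median log2 fold change of 0.33. Over all genes tested, 6.19% were higher at that unadjusted p and 6789 of 13453 had a positive sign. Summed over the 14 markers, the libraries held 106 to 187 CPM on HFD and 99.2 to 134 CPM on SD in CD11c+ cells, and 229 to 298 CPM on HFD and 212 to 259 CPM on SD in CD206+ cells. None of the 14 was at 0 in a whole KO group. Per library, the mean deviation of the list on the log2(CPM + 1) scale was highest in HFD replicate 4 of both populations. In CD11c+ cells it was -0.291, -0.312, 0.263 and 0.803 in HFD replicates 1 to 4, against -0.36 to 0.019 on SD. In CD206+ cells it was 0.228, -0.148, -0.082 and 0.458 on HFD, against -0.176 to 0.035 on SD. The diets overlapped in both populations. The part of endothelial RNA in the changes of Rbp7, Pecam1, Gpihbp1 and Fabp4 was not tested, and in bulk samples more cells of a type and more RNA per cell cannot be told apart.

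Among the other genes that rose in KO cells were Arg1, Lgmn and Ltc4s. Arg1, the arginase of alternatively activated macrophages, had 8.62, 4.85, 3.87 and 5.19 CPM on HFD against 1.66, 0.975, 1.47 and 2.89 CPM on SD in CD11c+ cells, and 12.6, 9.79, 4.37 and 11.2 CPM on HFD against 2.58, 1.02, 1.71 and 7.24 CPM on SD in CD206+ cells. Only SD replicate 4 of the CD206+ cells reached into the HFD range. The change was 1.64 ± 0.34 (adjusted p = 0.0391, edgeR), and the call was lost in 14 of the 16 fits that left out 1 library. Other calls were often lost in these fits too: in 13 for Angptl4, Acot1, Gpihbp1 and Msmo1, in 11 for Lgmn, Isg15 and Mx1, and in 9 for Hilpda, Fabp4 and Idi1. Plin2 lost its call in 4 and Pecam1 in 3. The list of itaconate, nitric oxide and arginine enzymes had no other call among its 9 tested genes, 4 positive signs and a median of -0.011. Lgmn, the lysosomal protease legumain, had 809, 826, 1129 and 889 CPM on HFD against 716, 553, 572 and 737.5 CPM on SD in CD11c+ cells, and 1100.4, 1227, 1339 and 1082 CPM on HFD against 987, 938.5, 902 and 954 CPM on SD in CD206+ cells. Its groups did not overlap, and it rose by 0.42 ± 0.085 (adjusted p = 0.0391, edgeR).

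Ltc4s, the synthase of leukotriene C4, averaged 12.0 ± 6.30 CPM on HFD and 3.83 ± 2.11 CPM on SD in CD11c+ cells and 122 ± 23.4 CPM on HFD and 64.0 ± 7.39 CPM on SD in CD206+ cells (SD, n = 4 each). It rose by 1.23 ± 0.24 (adjusted p = 0.0347, edgeR), against -0.39 ± 0.24 in WT, a difference of 1.58 (adjusted p = 0.000345). Glul, glutamine synthetase, rose by 0.69, Cd300a, an inhibitory lipid-binding receptor, by 0.64, Pam, an enzyme that amidates peptides, by 0.54, and Itgb5, a subunit of the vitronectin-binding integrin, by 0.47. Ccrn4l, the circadian gene also known as nocturnin, rose by 0.78. Tmem37, Aldh9a1, Nt5dc2, Pon3 and Ggcx rose by 0.40 to 0.54, with Pon3 encoding a paraoxonase and Ggcx the vitamin K-dependent carboxylase. A further 3 called genes have only clone names.

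Ngp, which encodes a granule protein of neutrophil precursors, had the largest fitted change, but it was at 2.50, 0.00, 0.051 and 1.13 CPM on HFD and at 0 in all SD libraries of CD11c+ cells. In CD206+ cells it was at 0.295, 1.49, 0.131 and 0.500 CPM on HFD and at 0 in all but SD replicate 4 (0.053 CPM), so no fold is given. The 11 neutrophil markers summed to 55.0 to 114 CPM on HFD and 61.6 to 96.6 CPM on SD in CD11c+ KO cells and to 81.7 to 101 CPM on HFD and 85.9 to 112 CPM on SD in CD206+ KO cells. Of the 7 markers tested 1 was called (Ngp), 5 were higher at an unadjusted p under 0.05 and the median log2 fold change was 1.87, and the part of neutrophil RNA was not tested.

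Of the 22 genes that fell on HFD in KO cells, 6 belong to the sterol and fatty acid synthesis list and 3 to the interferon response list. The promoters of one gene of each kind are shown because they hold the core letters of the elements through which the SREBP and the interferon pathways are known to act. They are the 250 bases before the gene's start in RefSeq on build GRCm38.p6, 5′ to 3′ on the gene's strand, at chr13:119690101-119690350 on the plus strand for Hmgcs1 and at chr4:156200819-156201068 on the minus strand for Isg15. Capitals mark the sterol response element core TCACNCCAC in Hmgcs1 and the interferon-stimulated response element core in Isg15, which is GAAA, any 2 bases and GAAA, where 3 matches overlap.
Hmgcs1: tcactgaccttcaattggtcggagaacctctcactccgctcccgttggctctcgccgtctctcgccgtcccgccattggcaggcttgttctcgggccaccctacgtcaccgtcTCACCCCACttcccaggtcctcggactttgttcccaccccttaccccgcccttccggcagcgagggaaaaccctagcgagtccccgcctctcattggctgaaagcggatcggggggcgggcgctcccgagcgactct
Isg15: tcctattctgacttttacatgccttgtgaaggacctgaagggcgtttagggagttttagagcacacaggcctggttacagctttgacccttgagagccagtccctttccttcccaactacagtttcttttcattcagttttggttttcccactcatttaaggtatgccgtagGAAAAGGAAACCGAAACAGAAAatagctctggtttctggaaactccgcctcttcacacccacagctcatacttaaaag
The first base of the match lies at position -137 from the start in Hmgcs1, and the matches in Isg15 begin at -78, -72 and -66. Both motifs were searched on both strands, in windows that also include the 50 bases after the start. Of 49 called genes 34 had a window: the sterol core was in 1 of 16 lower genes (Hmgcs1) and 1 of 18 higher genes (Aldh9a1), against 1.44% of all 27025 genes with a window, and the interferon core in 1 lower gene (Isg15) and 1 higher gene (Glul), against 3.99% of all genes with a window. In the whole lists, 24 of 40 interferon response genes with a window held the interferon core, and 1 of 23 genes of the sterol and fatty acid synthesis list held the sterol core. A match is a description of the letters only.

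Enzymes of sterol and fatty acid synthesis were among the genes called lower. Hmgcs1, the cytosolic HMG-CoA synthase at the head of the mevalonate pathway, had 50.05, 61.3, 59.4 and 71.6 CPM on HFD against 92.5, 107, 81.3 and 137 CPM on SD in CD11c+ cells, and 44.0, 35.9, 36.9 and 48.8 CPM on HFD against 51.3, 56.15, 50.4 and 78.1 CPM on SD in CD206+ cells. The diets did not overlap in either population. Its log2 fold change was -0.65 ± 0.12 (adjusted p = 0.0312, edgeR).

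Hsd17b7, a 3-ketosteroid reductase of cholesterol synthesis, had 7.67, 8.95, 8.05 and 10.6 CPM on HFD against 17.0, 16.25, 11.2 and 25.0 CPM on SD in CD11c+ cells, and 6.73, 3.86, 4.89 and 7.585 CPM on HFD against 7.74, 14.4, 8.43 and 13.3 CPM on SD in CD206+ cells, again without overlap (-0.95 ± 0.18, adjusted p = 0.0312, edgeR). Idi1, the isopentenyl diphosphate isomerase, had 48.3, 62.4, 46.0 and 55.1 CPM on HFD against 66.0, 122, 88.0 and 84.3 CPM on SD in CD11c+ cells. In CD206+ cells its values of 31.8, 18.5, 20.01 and 35.4 CPM on HFD and 34.1, 54.7, 39.9 and 59.7 CPM on SD overlapped through replicate 1 of the SD cells, and the change was -0.80 ± 0.15 (adjusted p = 0.0347, edgeR).

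Fasn, the fatty acid synthase, had the largest change among the lower genes. It was at 31.75, 38.15, 23.8 and 33.8 CPM on HFD against 37.5, 74.35, 55.1 and 63.2 CPM on SD in CD11c+ cells, and at 19.6, 12.8, 19.5 and 19.98 CPM on HFD against 24.15, 67.7, 61.65 and 32.3 CPM on SD in CD206+ cells. SD replicate 1 was the lowest SD library in both populations. Fasn fell by 1.11 ± 0.20 on the log2 scale (adjusted p = 0.0312, edgeR), against 0.94 ± 0.16 lower in WT. The late sterol enzymes Msmo1 and Sc5d fell by 0.49 and 0.50, and Stard4, a carrier that moves cholesterol between membranes, fell by 0.71.

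Of the 33 tested genes of the sterol and fatty acid synthesis list 6 were called lower and 0 higher, 22 were lower and 0 higher at an unadjusted p under 0.05, and 31 had a negative sign. DESeq2 called 12 of them lower. Over all genes tested, 0.164% were called lower by edgeR, 5.77% were lower at an unadjusted p under 0.05 and 6664 of 13453 had a negative sign. The median log2 fold change was -0.47 in KO, against 0.0014 over all genes tested, and 0.0041 in WT. The pooled WT value hides opposite signs, with a WT median of -0.29 in CD11c+ and 0.15 in CD206+ cells. In KO these medians were -0.44 and -0.37. Hsd17b7 and Aacs, which activates acetoacetate for lipid synthesis and fell by 0.61, are outside that list. The cholesterol efflux and LXR target list, which shares Stard4 with it, had no other call among its 18 tested genes, 15 positive signs and a median of 0.099. Mean deviations of the list per library ran from -0.48 to -0.024 on HFD and from 0.068 to 0.39 on SD in CD11c+ cells, and from -0.45 to 0.022 on HFD and from -0.11 to 0.32 on SD in CD206+ cells, on the log2(CPM + 1) scale. Msmo1, Hmgcs1 and Hsd17b7 were called lower on HFD in KO and higher on HFD in WT (0.54, 0.50 and 0.62), and the genotypes differed in the diet effect by -1.03, -1.15 and -1.56 (adjusted p = 2.59e-05, 3.29e-05 and 2.76e-05, edgeR). In that test 14 list members were more negative and 4 more positive in KO. Lipid-filled adipocytes also express part of this list; 17 adipocyte markers summed to 104 to 152 CPM on HFD and 108 to 159 CPM on SD in CD11c+ KO cells and to 169 to 311 CPM on HFD and 219 to 352 CPM on SD in CD206+ KO cells. Of the 16 tested, Fasn was the 1 that was called in KO, 10 had a positive sign, and their part was not tested.

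Isg15, a ubiquitin-like modifier induced by interferon, had 32.7, 35.9, 29.1 and 26.2 CPM on HFD against 34.4, 42.7, 54.8 and 57.9 CPM on SD in CD11c+ cells, and 31.8, 29.1, 24.9 and 31.2 CPM on HFD against 31.3, 41.3, 50.5 and 59.8 CPM on SD in CD206+ cells. SD replicate 1 lay within the HFD range in both populations, and SD replicates 3 and 4 were the highest in both. Isg15 fell by 0.63 ± 0.13 on the log2 scale (adjusted p = 0.0366, edgeR), against 0.95 ± 0.17 lower in WT.

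Mx1, an antiviral dynamin-like GTPase, had 7.34, 8.05, 6.52 and 8.72 CPM on HFD against 8.36, 15.3, 18.1 and 17.05 CPM on SD in CD11c+ cells, and 10.3, 6.34, 5.46 and 9.765 CPM on HFD against 12.3, 10.6, 12.45 and 20.2 CPM on SD in CD206+ cells. It fell by 0.87 ± 0.18 (adjusted p = 0.0373, edgeR), with an overlap only through SD replicate 1 of CD11c+ cells. Samd9l, an interferon-induced restriction factor, had 122.5, 100.2, 100.3 and 103.8 CPM on HFD against 112.8, 137, 147 and 152 CPM on SD in CD11c+ cells, and 158, 149.5, 125 and 156 CPM on HFD against 179.8, 182, 202 and 226.5 CPM on SD in CD206+ cells (-0.39 ± 0.077, adjusted p = 0.0349, edgeR).

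All 57 tested genes of the interferon response list had a negative sign in KO, 3 were called lower, 38 were lower at an unadjusted p under 0.05 and DESeq2 called 11 lower. Over all genes tested, 6664 of 13453 had a negative sign, 0.164% were called lower and 5.77% were lower at that unadjusted p. The list's median was -0.36 in KO and -0.27 in WT, where 20 were called lower and 1 higher. The SD libraries differed in this list among themselves. Its mean deviation was -0.033 and -0.11 in SD replicates 1 and 2 of CD11c+ cells, which fall within the HFD range of -0.28 to -0.077 or just above it, and 0.28 and 0.52 in SD replicates 3 and 4. In CD206+ cells the same numbers were the low and the high ones, at -0.065, -0.12, 0.29 and 0.65 in SD replicates 1 to 4, against -0.51 to -0.023 on HFD. Interferon genes move together within a library, so the 57 signs are not independent.

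**Figure D3:**
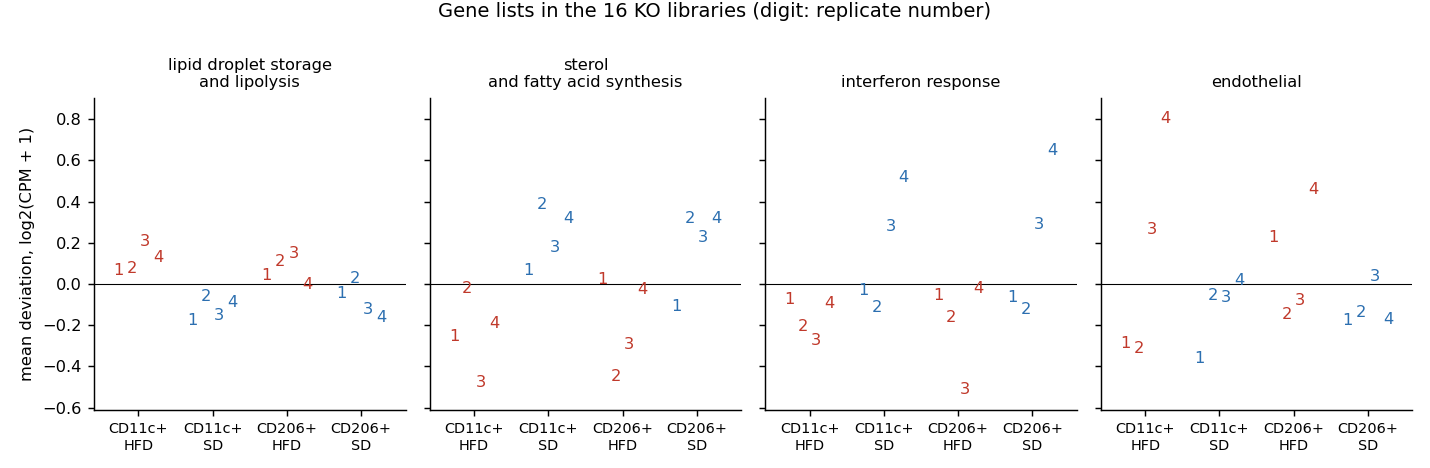
Mean deviation of 4 gene lists in each of the 16 KO libraries from the mean of the 8 KO libraries of the same population (y axis, log2(CPM + 1)), with HFD in red and SD in blue; each digit is a library at its replicate number. The sterol and fatty acid synthesis list lies lower on HFD in CD11c+ cells (-0.48 to -0.024, against 0.068 to 0.39 on SD), and the interferon response list is high in SD replicates 3 and 4 of both populations.

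Several other lower genes are known interferon-inducible or lymphoid genes. Klrk1, which encodes the activating receptor NKG2D, had 38.9, 42.8, 45.5 and 53.65 CPM on HFD against 61.9, 83.3, 81.9 and 71.4 CPM on SD in CD11c+ cells, and 9.58, 6.13, 3.93 and 9.54 CPM on HFD against 11.2, 13.4, 13.9 and 20.02 CPM on SD in CD206+ cells, without overlap. Its log2 fold change was -0.85 ± 0.15 in KO (adjusted p = 0.0312, edgeR) and -3.16 ± 0.27 in WT, and the difference was 2.1 in the fit over all libraries (adjusted p = 1.17e-07). The 9 NK cell markers summed to 3.06 to 18.8 CPM on HFD and 3.63 to 16.3 CPM on SD in CD11c+ KO cells and to 3.81 to 16.1 CPM on HFD and 3.21 to 11.2 CPM on SD in CD206+ KO cells; all 7 that were tested had a positive sign.

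Fgl2, a secreted fibrinogen-like protein, averaged 696 ± 69.5 CPM on HFD and 927.5 ± 69.9 CPM on SD in CD11c+ cells and 606 ± 147 CPM on HFD and 1069 ± 184 CPM on SD in CD206+ cells (SD, n = 4 each), and fell by 0.62. Pydc3 and Pydc4, pyrin-domain genes with near-identical neighbours among which reads may have been split, fell by 0.62 and 0.60, and Phf11d fell by 0.52. The tyrosine phosphatase gene Ptpre, the ubiquitin ligase gene Trim36, the ETS factor gene Ehf and Fbrsl1 fell by 0.31 to 0.60, Aldh1l1, an enzyme of folate metabolism, fell by 0.70, and 1 called gene has only a clone name.

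Among the other lists, few members passed in KO. The 34 genes of NF-kB subunits, inhibitors and feedback targets had 0 calls, 11 lower and 0 higher at an unadjusted p under 0.05, 33 negative signs and a median of -0.21; DESeq2 called 2 lower. Over all genes tested, 5.77% were lower at that unadjusted p and 6664 of 13453 had a negative sign. HFD replicate 3 was the lowest library in both populations, with a mean deviation of the list of -0.426 in CD11c+ and -0.456 in CD206+ cells on the log2(CPM + 1) scale. In CD11c+ cells HFD replicates 1, 2 and 4 were at 0.036, -0.223 and 0.089, against 0.008 to 0.206 on SD, so replicate 2 also lay below the SD range. The other HFD libraries of CD206+ cells, at 0.01, -0.024 and 0.071, lay among or near the SD libraries at 0.039, 0.013, 0.042 and 0.305. Within the list Ebi3, a subunit of IL-27 and IL-35, had a log2 fold change of -0.29 (adjusted p = 0.122, edgeR) and Cd40, the receptor of T cell help, one of -0.45 (adjusted p = 0.124, edgeR). The 28 inflammatory cytokine genes had 0 calls by edgeR or DESeq2, 10 lower and 0 higher at an unadjusted p under 0.05, and a median of -0.21. Il18, a cytokine released by inflammasomes, had a log2 fold change of -0.32 (adjusted p = 0.294). Cell cycle genes had 0 calls among 50 and 0 at an unadjusted p under 0.05 in KO, against 19 called higher in WT. Of all genes tested, 0.364% were called in KO and 18.3% were called higher in WT.

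MHC class II presentation and co-stimulation had 0 calls among 17 genes in KO, with a median of -0.053, against 14 called lower and 1 higher in WT, with a median of -0.89. Immediate early and dissociation stress genes had 0 calls among 33 in KO against 26 lower and 1 higher in WT; the part that the handling of cells has in the WT diet effect was not tested. The resident and alternatively activated macrophage list had 1 call in KO, Arg1, with 11 higher and 0 lower at an unadjusted p under 0.05 and a median of 0.34 in KO against -0.18 in WT. By population its median was 0.68 in CD11c+ and 0.06 in CD206+ cells in KO, and 0.22 and -0.70 in WT. Slc40a1, the iron exporter ferroportin of the antioxidant and iron handling list, had a log2 fold change of 1.88 (adjusted p = 0.0995), and that list had 0 calls among 29 genes. Of all genes tested, 0.364% were called in KO, and 18.3% were called higher and 18.3% lower in WT. Lists of these sizes without a call in KO are near the KO share.

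**Figure D4:**
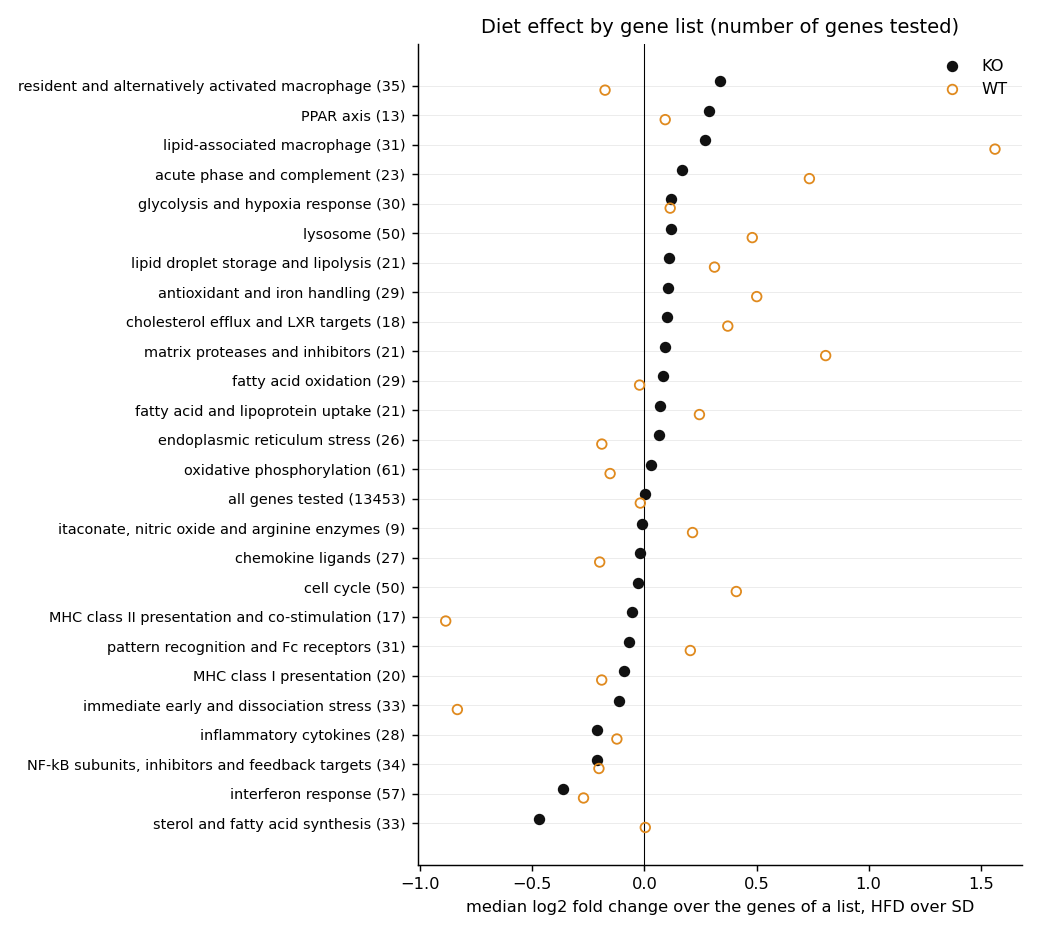
Median log2 fold change between HFD and SD over the tested genes of each list (x axis) in KO (filled) and WT (open); rows are lists with the number of genes tested. The lipid-associated macrophage list stands at 0.27 in KO and 1.56 in WT, and the sterol and fatty acid synthesis list at -0.47 in KO and 0.0041 in WT. The latter WT value pools medians of -0.29 in CD11c+ and 0.15 in CD206+ cells.

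Most genes that define lipid-associated macrophages differed between the genotypes in their diet effect. Of 31 tested, 2 were called higher in KO (Plin2 and Fabp4) and 26 in WT, against 0.201% and 18.3% of all genes tested. At an unadjusted p under 0.05 in KO, 16 were higher and 1 lower, against 6.19% and 5.77% of all genes tested. The median was 0.27 in KO and 1.56 in WT. The diet effect was more negative in KO for 25 of the 31, against 15.2% of all genes tested. Gpnmb, a lysosomal glycoprotein of lipid-laden macrophages, averaged 250.8 ± 105 CPM on HFD and 125 ± 60.4 CPM on SD in CD11c+ KO cells, against 2312 ± 562 CPM on HFD and 112 ± 51.3 CPM on SD in CD11c+ WT cells (SD, n = 4 each). Its log2 fold change was 1.14 ± 0.42 in KO (adjusted p = 0.302, edgeR) and 5.63 ± 0.49 in WT, a difference of -4.56 (adjusted p = 2.1e-07). For Ctsk, the protease cathepsin K, the values were 0.59 ± 0.40 in KO (adjusted p = 0.609) and 4.74 ± 0.28 in WT. Lysosome genes had 1 call in KO (Lgmn), 15 higher and 0 lower at an unadjusted p under 0.05, 41 of 50 positive and a median of 0.12, against 38 called higher in WT and a median of 0.48. Markers of stromal cells moved with the WT diet effect, with 16 of 18 called higher in WT (median 1.34) and 0 in KO (4 higher at an unadjusted p under 0.05, median 0.043), and their part was not tested.

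Of the 2463 genes called higher on HFD in WT, 14 were also called higher in KO, which is 0.568% of the WT list and 51.9% of the KO list. Their median log2 fold change was 0.034 in KO and 0.62 in WT, 59.5% had the WT sign in KO, and 1788 (72.6%) differed between the genotypes. Of the 2464 genes called lower in WT, 12 were also called lower in KO, or 0.487% of the WT list and 54.5% of the KO list, with a median of -0.034 in KO and -0.64 in WT, 59.3% with the WT sign and 1659 (67.3%) that differed. Over all genes tested, 18.3% were called higher and 18.3% lower in WT, and 29.7% differed between the genotypes. The WT libraries chose these genes and also enter the genotype difference. The choice can therefore raise the shares that differed, which are no separate result. Itgb5 was called higher in both genotypes. It averaged 174 ± 45.0 CPM on HFD and 122 ± 10.7 CPM on SD in CD11c+ KO cells, against 611 ± 54.6 CPM on HFD and 78.4 ± 21.9 CPM on SD in CD11c+ WT cells (SD, n = 4 each). Its diet effect was 0.47 in KO and 2.37 in WT, a difference of -1.90 (adjusted p = 4.79e-10, edgeR).

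Retnla, the secreted marker of alternative activation that is also a PPAR target, averaged 4359 ± 2871 CPM on HFD and 4960 ± 2650 CPM on SD in CD11c+ KO cells, against 1095 ± 475 CPM on HFD and 18230 ± 5173 CPM on SD in CD11c+ WT cells (SD, n = 4 each). The diet effect was 0.011 ± 0.33 in KO and -3.94 ± 0.21 in WT. Of the 27 genes called higher in KO, 14 were called higher in WT and 13 were not called there; of the 22 called lower in KO, 12 were called lower, 3 higher and 7 not called in WT. The genotypes differed in the diet effect of 16 of the 27 and 10 of the 22. Not called in WT refers to the fit over both populations. In CD11c+ WT cells alone, Angptl4 rose by 1.42 and Acot1 by 1.75 (adjusted p = 0.000442 and 0.000205, edgeR). In CD206+ WT cells they had values of -0.55 and -0.33. Ggcx rose by 0.60 in CD11c+ and Aldh9a1 by 0.32 in CD206+ WT cells (adjusted p = 0.000437 and 0.00984, edgeR). Ltc4s and Aldh1l1 went against KO, at -0.91 in CD206+ and 0.81 in CD11c+ WT cells (adjusted p = 0.00635 and 0.0471, edgeR).

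**Figure D5:**
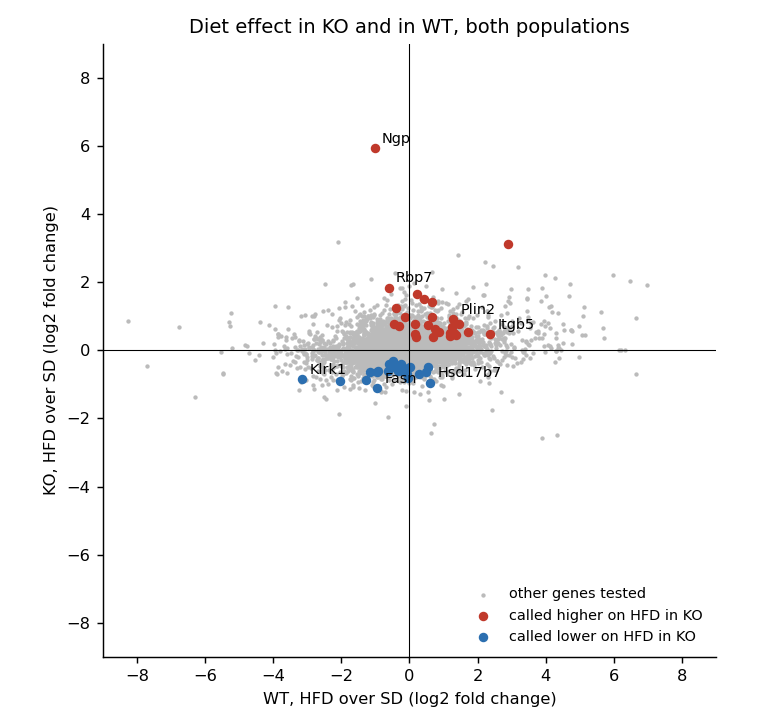
Log2 fold change between HFD and SD over both populations in KO (y axis) and in WT (x axis) for each of the 13453 genes tested, with the 27 genes called higher (red) and the 22 called lower (blue) in KO; both axes have the same scale. The cloud is wider along the WT axis (1790 genes beyond 1 in WT and 219 in KO), and the fitted value of Ngp rests on SD libraries almost without counts.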

How the data were processed

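Bulk RNA was sequenced from 32 sorted macrophage libraries in 8 groups of 4, with group and replicate number read from the titles. The submitters' processing notes name TopHat2 2.1.0, SAMtools 0.1.18, Trimmomatic 0.35 and FastQC 0.11.4 with build mm10 (GRCm38); the read counter, annotation release, strand setting and handling of multi-gene reads were not stated. The authors deposited whole-number read counts for 24421 genes per library, not normalized. Entries that name no gene, 5.16% to 11.1% of reads outside genes and 0.992% to 1.48% that fit several genes, were left out of library sizes and tests. Gene counts per library were 17619638 to 23832924, and replicates of a group differed by more than sampling noise (chi-square of 10.4 to 63.8 per degree of freedom).

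Genes were kept with filterByExpr (minimum count 10, 8 groups, all 32 libraries), which left 13453, and scaled by TMM (factors 0.855 to 1.08) in R 4.3.3. edgeR 4.0.16 quasi-likelihood fits compared HFD with SD in the 16 KO libraries, and separately in the 16 WT libraries, with population as an additive term. The genotype difference used all 32 libraries with 8 group means, and the difference between populations the 4 KO group means. P-values were adjusted by Benjamini-Hochberg over all genes tested with a threshold of 0.05. An SE is the log2 fold change divided by the square root of its F value. CPM uses TMM-scaled totals and has no length correction. Alternatives used RLE size factors, no filter (18929 genes), DESeq2 1.42.0, limma 3.58.1 with voom, other designs and left-out libraries. The edgeR fits of the KO diet effect and of the genotype difference were tested on simulated data. Libraries were drawn independently there, so a source shared by same-numbered libraries is not covered. Coordinates are those of RefSeq on GRCm38.p6.

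The members and gene lists were chosen with earlier results of these data known. Named genes are Tnfaip3 and sort or lineage genes; up to 12 called genes per direction in KO with at least 10 CPM and no overlap within a population; up to 4 called genes, or the 2 with the smallest p, per list; up to 10 per direction with the smallest p in the genotype difference and up to 5 in the difference between populations; and up to 8 per direction in WT. Those of the population difference and of some lists are not printed, as 0 passed. Clone names were counted only, and 1 called gene is not reported here. The other called genes that the text names, and G0s2, Pdk4 and Pparg, were named after their values were seen. For 11 called genes per direction the diets did not overlap within either population, against 20 (0.149%) higher and 19 (0.141%) lower over all genes tested.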

Additional observations from a re-analysis of the deposited data

Results flagged for a closer look

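Single libraries stood away from the other 3 of their group in 4 of the 80 groups examined for genes shown by library, and chance alone flags about 1 group in 20. Hilpda was at 49.1 CPM in HFD replicate 2 of CD11c+ KO cells, against 35.03 to 36.4 CPM in the others. Fasn was at 12.8 CPM in HFD replicate 2 of CD206+ KO cells, against 19.5 to 19.98 CPM. Samd9l was at 122 CPM in HFD replicate 1 of CD11c+ KO cells, against 100.2 to 103.8 CPM. Ngp was at 0.0528 CPM in SD replicate 4 of CD206+ KO cells and at 0 in the others.

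The diet effect differed between KO and WT for 68 of the 97 genes named here (edgeR, all 32 libraries, adjusted p under 0.05, against 29.7% of all genes tested); many of these were named for that difference, so their number is no separate result. Values are the HFD effect in KO minus that in WT on the log2 scale. Among genes called higher on HFD in KO, it was more positive in KO for Rbp7 (2.44), Ltc4s (1.58), Gpihbp1 (1.22), Cyp4b1 (1.10), Angptl4 (1.09), Pecam1 (1.04) and Aldh9a1 (0.34). It was more negative in KO for Itgb5 (-1.90), Pam (-1.20), Nt5dc2 (-0.95), Lgmn (-0.78), Ccrn4l (-0.67), Glul (-0.58) and Pon3 (-0.28). Among genes called lower in KO it was more negative for Hsd17b7 (-1.56), Hmgcs1 (-1.15), Msmo1 (-1.03), Aldh1l1 (-0.97), Idi1 (-0.76), Stard4 (-0.63), Sc5d (-0.51) and Fbrsl1 (-0.39), and more positive for Klrk1 (2.1).

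Of the sort and lineage genes the difference was -2.17 for Itgax, -1.09 for Adgre1, -0.71 for Cd68 and 0.53 for Lyz2. Among genes named from fuel use and inflammation it was 2.07 for Pdk4, 0.64 for Slc25a20, 0.58 for Etfb, 0.46 for Il18, -0.29 for Ebi3, -0.56 for Cd40 and -0.97 for Pparg.

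Genes with the largest rise on HFD in WT had differences of -6.57 (Nrcam), -5.50 (Serpinb9b), -4.62 (Pcp4l1), -4.61 (Shc2), -4.56 (Gpnmb), -4.28 (Rnf128) and -4.23 (Ctsk). Those with the largest fall in WT had differences of 8.25 (Rnase2a), 6.90 (Akr1c18), 5.19 (Otof), 5.07 (Cd209d), 4.25 (Upb1), 4.23 (Thsd4) and 3.95 (Retnla). These genes were named for their change in WT, which enters the difference, so large differences of opposite sign are no separate result. In Nrcam, Serpinb9b, Rnase2a and Akr1c18 some groups hold almost no counts, so the fitted size is uncertain.

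With the smallest p in this test, the difference was more positive in KO for Hepacam2 (3.73), Tspan32 (2.61), Sema4a (2.22), Gapt (2.16), Pilrb1 (1.94), Arhgap26 (1.78), Pilrb2 (1.74), Batf3 (1.61), Arhgap15 (1.18) and Trappc5 (1.14). Pilrb1 and Pilrb2 are near-identical neighbours whose reads may have been split. It was more negative in KO for Zranb3 (-4.32), Cdk18 (-3.40), Plxdc1 (-3.36), Myo10 (-2.91), Hpgds (-2.83), Tlr13 (-2.49), Dcbld2 (-2.25), Rasa1 (-1.63), Gga2 (-1.5) and Rhoc (-1.45). None of these 20 genes was called in KO.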

How the results depend on the processing

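No named gene that was called in either fit changed sign. Called genes were chosen from the same libraries that were fitted again, so their kept signs are no separate result. Among genes called in neither, 19 changed sign in 118 fits (lowest adjusted p 0.727), such as Akr1c18, at 0.68 as reported and -0.69 to 1.02 without single libraries. RLE size factors, the 4 group means, no filter and voom without correlation kept the KO counts within 1.5 times of 27 higher and 22 lower. Other settings moved them. DESeq2 gave 123 higher and 77 lower genes, and the fit on all 32 libraries 52 higher. CD11c+ or CD206+ libraries alone gave 0 and 0 (905 and 946 at an unadjusted p under 0.05). Leaving out 1 library gave 1 to 44 higher and 0 to 26 lower genes. Both libraries of 1 number were left out as a setting chosen after seeing the data: without HFD replicate 2, 5 higher and 0 lower were called, without HFD replicate 3, 3 and 0, without SD replicates 2 or 3, 1 and 0, and without SD replicate 4, 5 and 0; without SD replicate 1 there were 41 and 36, and without HFD replicate 4, 37 lower. The cause was not tested. Depth limits Rbp7, Acot1 and Ngp, which have few reads.

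A replicate block was fitted as a correlation between same-numbered libraries of a diet. The fitted correlation was 0.163 in KO and 0.00317 in WT. In KO, 0 higher and 0 lower genes were called with that block. With same-numbered libraries of a diet summed, there were 1 higher and 0 lower. With the number as a fixed term, there were 46 higher and 52 lower. That term joins HFD and SD libraries of a number, so it does not model a source shared within a diet. Deviations of same-numbered CD11c+ and CD206+ KO libraries correlated by -0.035, -0.049, 0.333 and 0.202 on HFD and by 0.180, 0.161, 0.143 and 0.323 on SD. The labels give no pairing, and the reported fit has no block. In KO 6 of 8 correlated best with their own number, and in WT all 8 did (0.143 to 0.468), a hint from the data that numbers may mark a shared source; the same blocks moved no WT count by over 1.5 times.

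WT genes also called in KO numbered 14 higher and 12 lower. They came to 30 higher with all 32 libraries, to 56 and 35 by DESeq2, to 0 and 0 with the correlated block, to 1 and 0 with summed libraries and to 25 lower with the fixed term; leaving out 1 library gave 0 to 21 higher and 0 to 13 lower. WT counts stayed at 2167 to 2455 higher and 2107 to 2611 lower without single libraries, and the genotype difference at 1825 to 2121 more positive and 1837 to 2055 more negative. The difference between KO populations stayed at 0 in each setting run.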

Other observations

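Markers of lymphocytes mostly had positive signs for HFD in the KO libraries and did not pass the test. All 7 tested B cell markers had a positive sign, with a median log2 fold change of 0.95 and 0 calls by edgeR (3 at an unadjusted p under 0.05). All 8 listed markers summed to 15.1 to 31.4 CPM on HFD and 11.2 to 15.5 CPM on SD in CD11c+ cells, and to 19.6 to 36.7 CPM on HFD and 19.1 to 29.1 CPM on SD in CD206+ cells. The 14 T cell markers had 13 positive signs, a median of 0.54 and 0 calls (2 at an unadjusted p under 0.05), and summed to 94.8 to 150.3 CPM on HFD and 92.55 to 137 CPM on SD in CD11c+ cells and to 93.1 to 194 CPM on HFD and 114 to 180.4 CPM on SD in CD206+ cells.

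Oxidative phosphorylation had 0 calls among 61 genes in KO (median 0.028) against 2 higher and 17 lower in WT, glycolysis and hypoxia response 0 among 30 (median 0.12), and endoplasmic reticulum stress 0 among 26, with 6 higher and 0 lower at an unadjusted p under 0.05 and a median of 0.065. Matrix proteases and inhibitors had 0 calls among 21 in KO, against 13 higher and 2 lower in WT. Over all genes tested, 0.364% were called in KO, and 18.3% were called higher and 18.3% lower in WT. Lists of these sizes without a call in KO are near the KO share.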
